A study of Mus musculus with 6 samples.

Results

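Vcam1, Cd34, Sdc3, Sdc4, Calcr, Ncam1, Cxcr4, Met, Cd82 and Cd9 encode surface proteins by which muscle satellite cells are recognised, sorted or signalled to, and they were taken by symbol from a table of transcript levels for 25220 genes, in which all 10 were found. The levels were measured by poly(A) RNA sequencing of primary myoblasts, the cultured progeny of satellite cells, from mouse hindlimb muscle. Of the 6 libraries, 3 were labelled Pax7 CRE+/-;Psat1fl/fl (Psat1 cKO) and 3 Pax7 +/+; Psat1fl/fl (Ctrl). Both groups therefore carried floxed alleles of Psat1, the aminotransferase of serine synthesis, and only Psat1 cKO carried Cre, at 1 Pax7 allele. Cre driven from Pax7 acts in satellite cells and in what descends from them. Whether it was induced is not stated, and an effect of Cre or of the altered Pax7 allele cannot be told apart from an effect of Psat1 loss. The medium of both groups held horse serum and bFGF, a fibroblast growth factor. The labels give no age and do not say whether the 3 replicates of a group were separate animals or cultures, so the p-values cover the spread among these libraries and no more, and part of it may be technical.

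Satellite cells are the resident stem cells of skeletal muscle and lie between the fibre and its basal lamina. In mouse muscle, resting satellite cells carry VCAM1, CD34, the syndecans, the calcitonin receptor and CXCR4, and cytometry for several of these is the usual way to isolate them. Once the cells are activated and grow in culture they turn into myoblasts. In these some of these genes, the calcitonin receptor above all, are shut off, while others such as NCAM1 and the HGF receptor MET are expressed.

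Upstream sequence was available for 8 of the 10 genes from RefSeq (GRCm38.p6), as windows of 300 bases that run from 250 before to 50 after an annotated start. The windows of 3 genes, chosen for the levels of the genes, are printed here in full. Cd34 was the gene that differed between the groups, Cxcr4 was its neighbour in level, and Calcr was nearly silent. Capitals mark CpG dinucleotides, and each window reads 5′ to 3′ along the gene's own strand.
Cd34, chr1:194938571-194938870, plus strand: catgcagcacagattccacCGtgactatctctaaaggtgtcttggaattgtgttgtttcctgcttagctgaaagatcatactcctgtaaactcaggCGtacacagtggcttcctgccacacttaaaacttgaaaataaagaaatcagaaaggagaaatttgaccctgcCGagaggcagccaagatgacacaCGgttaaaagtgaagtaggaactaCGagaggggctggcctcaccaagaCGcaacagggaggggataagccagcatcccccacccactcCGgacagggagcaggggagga
Cxcr4, chr1:128592250-128592549, minus strand: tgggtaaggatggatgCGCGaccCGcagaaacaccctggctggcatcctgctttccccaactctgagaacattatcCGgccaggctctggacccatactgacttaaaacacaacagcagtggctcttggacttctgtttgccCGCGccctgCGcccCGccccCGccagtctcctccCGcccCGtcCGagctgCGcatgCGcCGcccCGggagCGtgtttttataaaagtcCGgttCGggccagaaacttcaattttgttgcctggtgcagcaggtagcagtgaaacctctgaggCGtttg
Calcr, first of its windows, chr6:3763574-3763873, minus strand: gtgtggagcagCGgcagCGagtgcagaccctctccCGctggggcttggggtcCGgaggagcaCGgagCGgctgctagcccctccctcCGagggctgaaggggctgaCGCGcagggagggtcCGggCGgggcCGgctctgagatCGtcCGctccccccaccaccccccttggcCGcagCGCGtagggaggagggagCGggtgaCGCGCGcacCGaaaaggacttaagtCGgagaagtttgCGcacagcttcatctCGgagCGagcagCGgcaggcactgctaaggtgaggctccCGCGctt
The Cd34 window held 7 CpG dinucleotides, which was also the median of all 32851 RefSeq windows, and its GC content was 50.0% against a median of 52.7%. The Cxcr4 window held 20 CpG and the Calcr window 29, while the second annotated Calcr start had 4. In the other genes' first windows the number was 44 for Sdc3, 34 for Met, 22 for Sdc4, 18 for Cd9 and 16 for Cd82. Searched on both strands, GGGCGG (the GC box) was present 3 times in the Cxcr4 window, once in that of Calcr and not in that of Cd34, and 35.7% of all windows held it. TATAAA had 2 overlapping matches in the Cxcr4 window and none in the other windows printed, against 13.6% of all windows. CANNTG, the E-box read by myogenic factors, was in none of the 3 windows printed, against 72.3% of all windows; it occurred 3 times in that of Cd9. TGACTCA, the AP-1 site, was found once, in the Met window, and in 5.2% of all windows. Such matches describe the letters only.

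The libraries held an estimated 35100000, 28900000 and 19500000 reads in Psat1 cKO, against 33500000, 39300000 and 43100000 reads in Ctrl, from the size of the smallest steps between low values. Levels are in RPKM, which scales reads to transcript length and library depth, so that genes can be compared per length. Psat1 itself was at 63.5, 74.7 and 71.8 RPKM in Psat1 cKO, against 91.8, 93.4 and 100.2 RPKM in Ctrl (log2 fold change -0.44, SE 0.07, limma adjusted p = 0.0225), and the call held in 1 of 6 fits that left out a library. These are values for the whole gene and cannot show the deleted part. Pax7, the satellite cell transcription factor and the Cre locus, was at 18.7, 15.9 and 17.5 RPKM in Psat1 cKO, against 26.3, 25.9 and 27.3 RPKM in Ctrl (-0.60, SE 0.06, adjusted p = 0.00907). Xist was expressed in Psat1 cKO 1 and 2 and in Ctrl 1, and Y-linked genes in Psat1 cKO 3 and in Ctrl 2 and 3. Of the 8 myoblast markers, all passed the filter, 2 were lower (Pax7 and Myf5), 6 did not pass the test and 0 had a positive log2 fold change (median -0.23), and their summed level was between 1610 and 1885 RPKM in Psat1 cKO, against 1942 to 2297 RPKM in Ctrl. Over all 12251 genes tested, 1.80% were higher and 0.490% lower in Psat1 cKO.

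One of the 10 surface genes differed between the groups by this test, and it was Cd34. Its transcript was 2.70 times as abundant in Psat1 cKO as in Ctrl by the ratio of means, and it was higher in each Psat1 cKO library than in any Ctrl library. The other 8 genes that could be tested, Vcam1, Sdc3, Sdc4, Ncam1, Cxcr4, Met, Cd82 and Cd9, had ratios of means between 0.805 and 1.12. Calcr was close to silent in both groups. The test was limma on log2(RPKM + 0.5), with genes kept where the 6 libraries averaged 0.5 RPKM or more and p-values adjusted over all genes tested (threshold 0.05), and 9 of the 10 passed that filter. By it 1 of 9 was higher, against a background of 1.80%, and 0 of 9 were lower, against 0.490%, with 2.29% of all genes called in either direction. At an unadjusted p under 0.05, 2 were higher, Cd34 and Cd9, and 1 was lower, Met, while 926 of all genes tested were higher and 836 lower. The groups did not overlap for these same 3 of 9 genes, against 20.5% of all genes tested (10.0% higher and 10.5% lower). Of the 9 log2 fold changes 3 were positive and 6 negative, with a median of -0.07 beside -0.01 for all genes tested. In bulk RNA, fewer cells that carry a transcript and less of it per cell cannot be told apart.

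**Figure D1:**
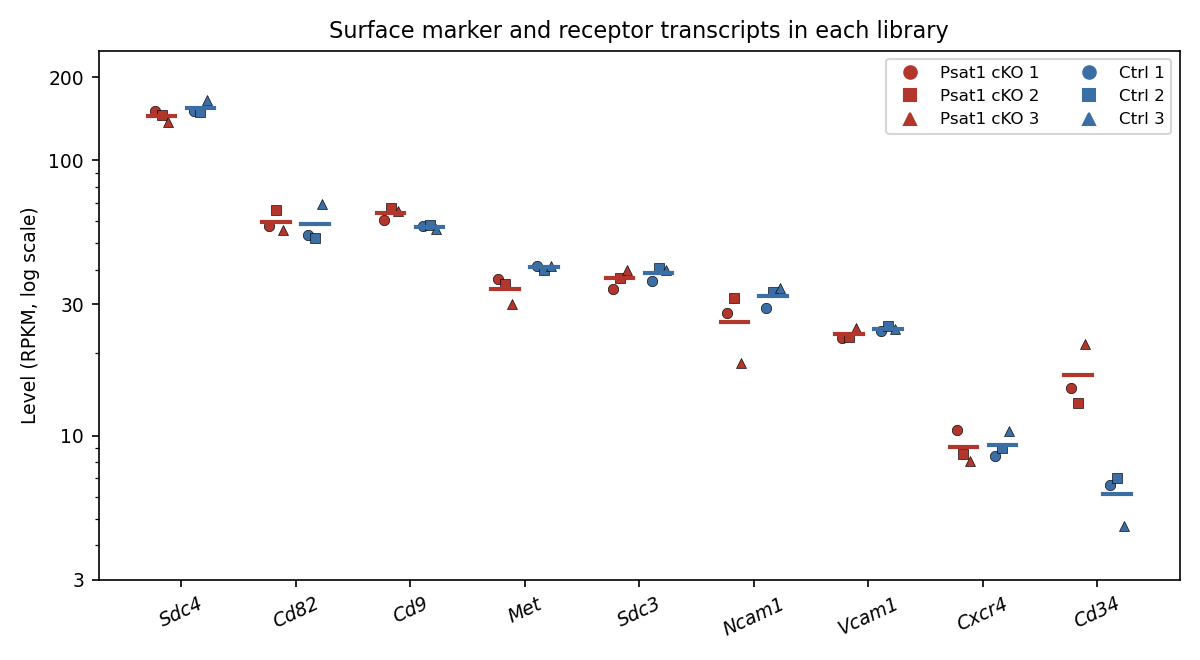
Level of 9 surface genes in each library, in RPKM on a log axis, with Psat1 cKO in red and Ctrl in blue; symbols give the replicate number and bars the group means. Cd34 lies between 13.2 and 21.6 RPKM in Psat1 cKO and between 4.71 and 7.03 RPKM in Ctrl, while for most other genes the groups lie side by side; Calcr, at no more than 0.0237 RPKM, is below the axis.

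The top and the bottom of the order of abundance were the same in every library, and several genes changed places in between. Sdc4 was the highest in all 6 libraries, with a mean of 145 RPKM in Psat1 cKO and 155 RPKM in Ctrl, and 98.2% to 98.6% of all genes in the table had a lower level. Cd9 and Cd82 followed, and their ranges overlapped in both groups, as did those of Met and Sdc3. In Psat1 cKO the ranges of Met and Ncam1, and those of Ncam1 and Vcam1, overlapped too, whereas in Ctrl they did not. The other neighbours in the order did not overlap within a group. Within groups Cd82 and Cd9 changed places in Ctrl 3, Sdc3 and Met changed places between libraries of both groups, and Ncam1 was below Vcam1 and Cd34 in Psat1 cKO 3. Cd34 ranked above Cxcr4 in all 3 Psat1 cKO libraries and below it in all 3 Ctrl libraries. The ratio of Cd34 to Cxcr4 was 1.42, 1.54 and 2.66 in Psat1 cKO, against 0.791, 0.780 and 0.453 in Ctrl. Set against Vcam1, another cell surface protein used to sort satellite cells, Cd34 stood at 0.661, 0.578 and 0.877 in Psat1 cKO, against 0.277, 0.282 and 0.193 in Ctrl. Calcr ranked last in all 6.

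Cd34 encodes a sialomucin, a heavily glycosylated membrane protein found on blood stem cells, endothelium, stromal progenitors and satellite cells (Entrez 12490, GRCm38.p6 chromosome 1, 194938821 to 194961292). It stood at 14.9, 13.2 and 21.6 RPKM in Psat1 cKO, against 6.64, 7.03 and 4.71 RPKM in Ctrl. The lowest Psat1 cKO library was well above the highest Ctrl library, and the libraries at both extremes, Psat1 cKO 3 and Ctrl 3, were among those with Y-linked expression. The means were 16.6 ± 4.45 RPKM in Psat1 cKO and 6.13 ± 1.24 RPKM in Ctrl (SD, n = 3 each), a coefficient of variation of 26.9% and 20.3%, and an estimated 517 to 1340 reads lay behind each value. On the log2 scale the fold change was 1.35 (SE 0.20, 95% interval 0.89 to 1.81, limma adjusted p = 0.0164). Within the libraries with Xist the difference of mean log2 values was 1.02, and within those with Y-linked expression it was 1.82. Ctrl 1 was the only control with Xist, and Psat1 cKO 3 the only Psat1 cKO library with Y-linked expression. A test of the interaction cannot tell the split from these single libraries, so no conclusion is drawn from it. The Cd34 call was kept in 15 of 17 alternative fits, with log2 fold changes between 1.15 and 1.50. It was lost without the filter on low values (adjusted p = 0.124) and without Ctrl 2 (adjusted p = 0.0523). In the authors' deposited table Cd34 had a ratio of 2.68 with p = 0.000332 and q = 0.0517.

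Other genes had profiles close to that of Cd34 across the libraries, a likeness that includes the difference between the groups. Among 10243 genes that averaged 2 RPKM or more, the 3 with the smallest root-mean-square difference from its centred log2 profile over the 6 libraries were Oaf at 0.234, Ptges at 0.245 and Tm4sf1 at 0.253. Oaf is the mouse counterpart of a Drosophila gene, out at first. It was at 28.5, 33.5 and 38.0 RPKM in Psat1 cKO, against a mean of 14.2 ± 2.54 RPKM in Ctrl (SD, n = 3; log2 fold change 1.21, adjusted p = 0.00981). Within Psat1 cKO, Oaf was lowest in the first library and Cd34 in the second. Ptges, the prostaglandin E synthase, averaged 3.31 ± 0.609 RPKM in Psat1 cKO and 1.34 ± 0.156 RPKM in Ctrl (SD, n = 3 each; log2 fold change 1.04, adjusted p = 0.0133). Tm4sf1, a small surface protein with a tetraspanin-like layout, averaged 43.9 ± 9.28 RPKM in Psat1 cKO and 23.5 ± 4.26 RPKM in Ctrl (SD, n = 3 each; log2 fold change 0.89, adjusted p = 0.0438), and its call was kept in 6 of 17 alternative fits, none of them a fit that left out a library. These genes were picked for their likeness to a gene that differs between the groups, so their own differences are a description.

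Cd34 is also carried by cells other than satellite cells, and some markers of these were higher in Psat1 cKO too. Fibro-adipogenic progenitors are the stromal cells of muscle. Of their 13 markers listed, 6 passed the filter, and all 6 had positive log2 fold changes with a median of 1.20. Of these 6, 3 were higher in Psat1 cKO, against 1.80% of all genes tested. Pdgfra, the receptor that defines these cells, was at 1.63, 2.87 and 2.71 RPKM in Psat1 cKO, against 0.510, 0.326 and 0.376 RPKM in Ctrl (log2 fold change 1.66, adjusted p = 0.00934). Its Ctrl mean of 0.404 RPKM was below 0.5 RPKM, so Pdgfra passed the filter only through its Psat1 cKO values. The count of 3 and the median of 1.20 include Pdgfra and are a description only. The other 2 that were higher were the matrix protein genes Smoc2 (1.60, adjusted p = 0.0227) and Mfap5 (1.24, adjusted p = 0.0489). The proteoglycan gene Dcn had 1.16 (adjusted p = 0.1004) and Ly6a, which encodes the surface antigen Sca-1, 0.16 (adjusted p = 0.659). The summed level of the 13 was between 14.7 and 22.0 RPKM in Psat1 cKO, against 7.07 to 9.23 RPKM in Ctrl. Below the filter, Dpt was at 0 except in Psat1 cKO 3, with 0.0299 RPKM, and Pi16 except in Psat1 cKO 1, with 0.0126 RPKM. Lum reached 0.123 RPKM at most. Apod and Col15a1, also below it, had higher means in Psat1 cKO. Ly6c1 and Clec3b had lower means, 0.292 and 0.0496 RPKM in Psat1 cKO, against 0.360 and 0.0602 RPKM in Ctrl. Within Psat1 cKO, Pdgfra, Smoc2 and Mfap5 were highest in the second library, where Cd34 was lowest, and Dcn and Ly6a were highest in the third, where Cd34 was highest. The part of such cells in the Cd34 difference was not tested.

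**Figure D2:**
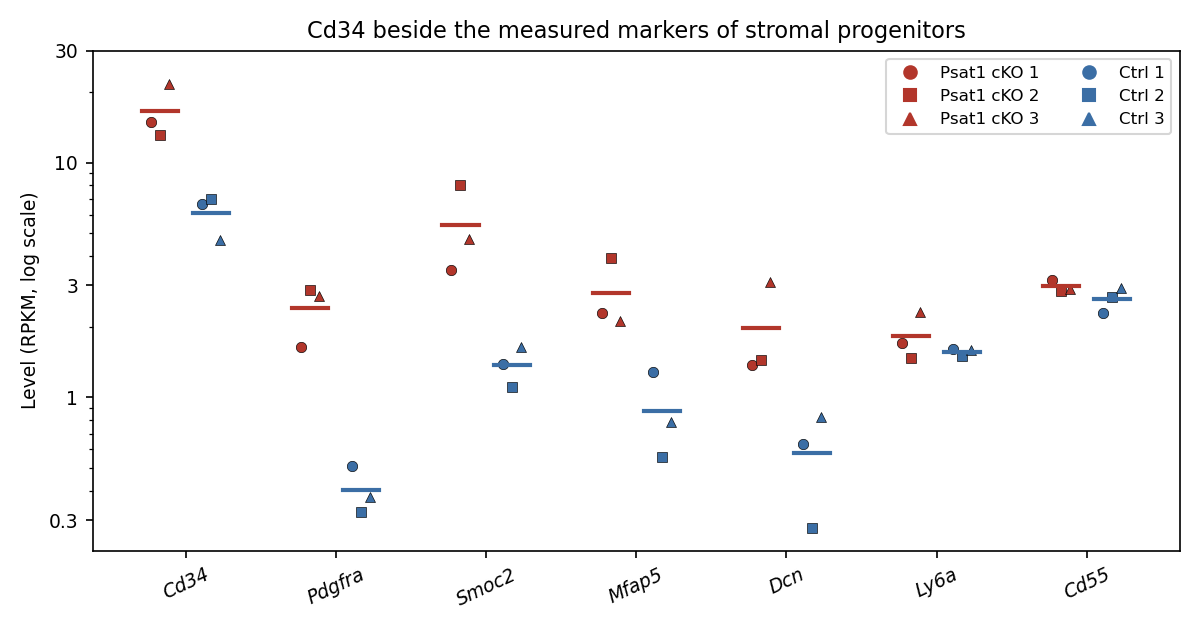
Cd34 and the 6 markers of fibro-adipogenic progenitors that passed the filter, in RPKM on a log axis, with Psat1 cKO in red and Ctrl in blue, symbols for the replicate number and bars for the group means. Pdgfra, Smoc2, Mfap5 and Dcn lie higher in all 3 Psat1 cKO libraries than in any Ctrl library, as Cd34 does, whereas Ly6a and Cd55 overlap between the groups.

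Endothelial and blood cells can also carry CD34, and most of their markers were below the filter and so not tested. Of 12 endothelial markers 4 passed the filter and 0 were called by limma, with 4 of 4 log2 fold changes positive and a median of 0.34. Closest to the threshold was Cdh5, at 1.79, 1.94 and 2.44 RPKM in Psat1 cKO, against 1.42, 0.667 and 0.887 RPKM in Ctrl (0.80, adjusted p = 0.0845). The summed level of the 12 was 6.93 to 15.6 RPKM in Psat1 cKO, against 5.02 to 7.64 RPKM in Ctrl. The highest sum was that of Psat1 cKO 3, the library with the most Cd34. Emcn was at 6.68 RPKM there and at no more than 2.15 RPKM in any other library. Pecam1, Cdh5, Kdr, Tie1, Cldn5, Ptprb, Flt1 and Esam were also at their highest in Psat1 cKO 3. Egfl7, Tek and Vwf were highest in a Ctrl library instead, with Egfl7 at 2.25 RPKM in Psat1 cKO 3 and 3.24 RPKM in Ctrl 3. Without Psat1 cKO 3 the Cd34 log2 fold change was 1.15 (adjusted p = 0.0384). Of 10 immune markers 3 passed and 0 were called, with 2 positive and a median of 0.27, and with sums of 12.9 to 26.3 RPKM in Psat1 cKO, against 17.2 to 27.4 RPKM in Ctrl, and Ptprc, the common leukocyte antigen, reached at most 0.0812 RPKM. Of 9 smooth muscle and pericyte markers 7 passed. All 7 had positive log2 fold changes (median 0.58), as did 5619 of all 12251 genes tested. By limma 2 were higher, against 1.80% of all genes tested. They were Tagln (log2 fold change 1.53, adjusted p = 0.0378) and Mcam (1.01, adjusted p = 0.0133). The 9 summed to 292 to 383 RPKM in Psat1 cKO, against 189 to 340 RPKM in Ctrl. Most of each sum was Acta2, which was not called by limma (0.14, adjusted p = 0.828). Of the Schwann cell, tenocyte and adipocyte markers 4, 2 and 2 passed the filter, and 0 were called by limma. The part of these cells too was not tested.

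Vcam1 and Ncam1 are adhesion molecules of the immunoglobulin superfamily. VCAM1 binds the integrin of ITGA4 and ITGB1, and antibodies to it are widely used to sort satellite cells. Vcam1 (chromosome 3, 116110020 to 116129688) stood at 22.6, 22.8 and 24.6 RPKM in Psat1 cKO, against 24.0, 24.9 and 24.4 RPKM in Ctrl. The groups overlapped through Psat1 cKO 3 and were close, at 23.3 ± 1.12 RPKM in Psat1 cKO and 24.4 ± 0.467 RPKM in Ctrl (SD, n = 3 each). The log2 fold change of -0.07 had a 95% interval of -0.18 to 0.05 (limma, adjusted p = 0.619), so that a change of the size seen in Cd34 lay outside it.

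NCAM1 marks cultured myoblasts as well as nerve and acts in contact between cells. Ncam1 (chromosome 9, 49502129 to 49799393) was at 27.9, 31.6 and 18.3 RPKM in Psat1 cKO, against 29.1, 33.2 and 34.4 RPKM in Ctrl. Psat1 cKO 3, the shallowest library, was the low one, and Psat1 cKO 2 lay within the Ctrl range. The log2 fold change was -0.34 with an interval of -0.76 to 0.08 (limma, adjusted p = 0.454), and without Psat1 cKO 3 it was -0.11. The Ncam1 difference was 0.03 within the libraries with Xist, where Ctrl 1 was the only control. It was -0.87 within those with Y-linked expression, where the low library, Psat1 cKO 3, was the only one of Psat1 cKO. The side of the split cannot be told apart from these single libraries. Of 11 relatives and polysialic acid enzymes 5 passed the filter, 0 were called by limma and 2 had a positive log2 fold change. Closest to the threshold were Prnp, the prion protein gene (-0.21, adjusted p = 0.105), and Nrcam, a neural adhesion molecule (0.45, adjusted p = 0.109), while St8sia2, the enzyme that puts polysialic acid on NCAM1, averaged 23.0 RPKM in Psat1 cKO and 26.1 RPKM in Ctrl (-0.18, adjusted p = 0.694).

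Partners of VCAM1 and CD34 gave 2 higher and 0 lower among the 10 that passed the filter of 15 listed, with a median log2 fold change of 0.02. Itgb1, the beta chain of the VCAM1 receptor and of most matrix receptors, was at 214, 229 and 211 RPKM in Psat1 cKO, against 175, 163 and 180 RPKM in Ctrl. Its groups did not overlap (log2 fold change 0.34, SE 0.06, adjusted p = 0.0327). Msn, or moesin, which ties membrane proteins to actin, was at 168, 177 and 167 RPKM in Psat1 cKO, against 141, 136 and 146 RPKM in Ctrl (0.28, SE 0.05, adjusted p = 0.0422). Each of these calls was kept in 7 of 17 alternative fits and in none of the 6 that left out a library. Itga4, the alpha chain that pairs with Itgb1 to bind VCAM1, averaged 4.26 ± 1.53 RPKM in Psat1 cKO and 4.06 ± 0.786 RPKM in Ctrl (SD, n = 3 each; 0.02, adjusted p = 0.981). Podxl, podocalyxin, the sialomucin nearest to CD34 in kind, averaged 3.55 RPKM in Psat1 cKO and 3.47 RPKM in Ctrl (0.02, adjusted p = 0.947), and Podxl2 had -0.32 (adjusted p = 0.125).

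The syndecans are transmembrane proteoglycans whose heparan sulfate chains hold growth factors such as FGF2 and HGF. Sdc4 (chromosome 2, 164424247 to 164443188) was at 151, 146 and 138 RPKM in Psat1 cKO, against 151, 150 and 165 RPKM in Ctrl. Ctrl 3 was the high library and the groups overlapped through Psat1 cKO 1 (log2 fold change -0.10, interval -0.24 to 0.04, limma adjusted p = 0.519). Sdc3 (chromosome 4, 130792537 to 130826318) was at 34.2, 37.4 and 40.1 RPKM in Psat1 cKO, against 36.3, 40.8 and 39.8 RPKM in Ctrl. The ranges overlapped over most of their width (-0.07, interval -0.23 to 0.10, adjusted p = 0.734). Sdc4 was 3.44 to 4.43 times as abundant as Sdc3 in Psat1 cKO, against 3.68 to 4.15 times in Ctrl.

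The other syndecans and the glypicans, with the proteins that bind their tails, gave 1 higher and 0 lower of 9 tested, 11 being listed, with a median of 0.02. Sdcbp2, a PDZ protein related to the syndecan-binding syntenin, averaged 2.19 ± 0.445 RPKM in Psat1 cKO and 0.923 ± 0.318 RPKM in Ctrl (SD, n = 3 each; log2 fold change 0.93, adjusted p = 0.0446), a call kept in 4 of 16 alternative fits. Sdc1 averaged 31.7 RPKM in Psat1 cKO and 33.5 RPKM in Ctrl (-0.08, adjusted p = 0.487), and Sdc2 27.4 RPKM in Psat1 cKO and 27.0 RPKM in Ctrl (0.02, adjusted p = 0.891). Of 28 genes for making and editing heparan sulfate 20 passed the filter, 10 of them had positive log2 fold changes, the median was 0.00 and 0 were called by limma. The endosulfatase gene Sulf1, whose product trims sulfate from the chains outside the cell, was at 7.53, 8.56 and 6.56 RPKM in Psat1 cKO, against 5.70, 5.26 and 5.16 RPKM in Ctrl (0.45, adjusted p = 0.0620). The chain polymerase gene Ext1 averaged 22.2 RPKM in Psat1 cKO and 18.7 RPKM in Ctrl (0.24, adjusted p = 0.0658). The groups did not overlap for either gene, yet neither passed the threshold; Sulf1 passed in 3 and Ext1 in 4 of 17 alternative fits.

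**Figure D3:**
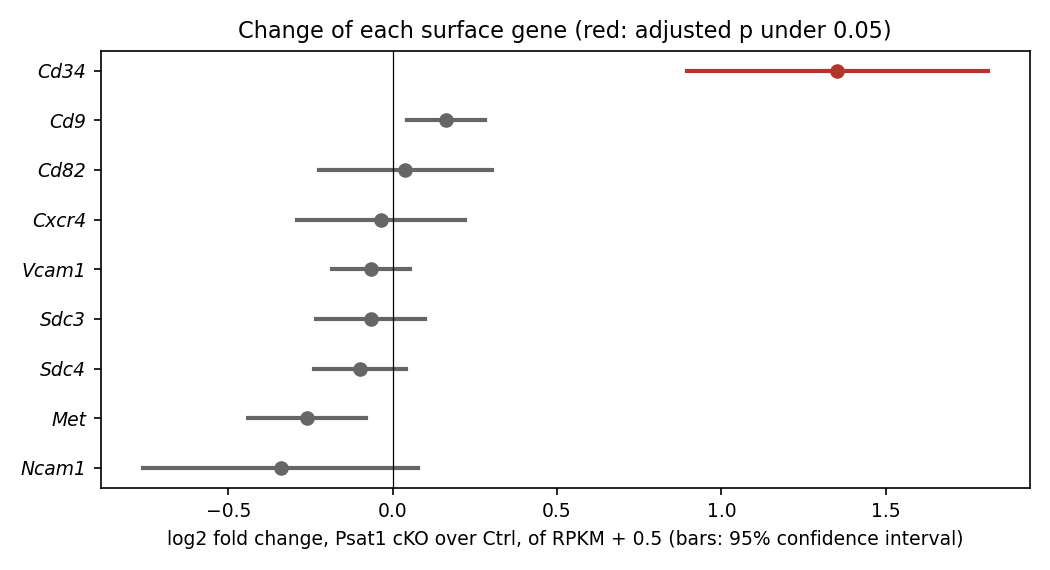
Log2 fold change of RPKM + 0.5, Psat1 cKO over Ctrl, for the 9 surface genes tested, with 95% confidence intervals from limma; red marks an adjusted p under 0.05. The Cd34 interval of 0.89 to 1.81 stands apart from all the others, and those of Cd9 and Met also leave out 0, though their adjusted p was 0.185 and 0.171.

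Met is the tyrosine kinase receptor of hepatocyte growth factor (HGF), a signal that brings satellite cells out of rest. Met (chromosome 6, 17463349 to 17573980) was at 36.9, 35.7 and 29.99 RPKM in Psat1 cKO, against 41.2, 40.0 and 41.5 RPKM in Ctrl. Each Psat1 cKO library was below each Ctrl library, with Psat1 cKO 3 the lowest. The means were 34.2 ± 3.69 RPKM in Psat1 cKO and 40.9 ± 0.784 RPKM in Ctrl (SD, n = 3 each), and the log2 fold change of -0.26 had a standard error of 0.08 and an interval of -0.44 to -0.08. It did not pass the test over all genes (limma, adjusted p = 0.171), nor in any of 17 alternative fits, where the adjusted p was 0.0982 to 0.355. In the authors' deposited table Met had a fold change of -1.20 and q = 0.521.

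Of 19 genes around HGF and MET, 14 passed the filter, 1 was higher and 0 were lower, with a median of 0.01. The higher gene was Plat, the tissue plasminogen activator, one of the proteases that can activate HGF. It was at 1.51, 1.55 and 1.62 RPKM in Psat1 cKO, against 0.917, 0.823 and 0.896 RPKM in Ctrl. The libraries of each group lay close together and the groups did not overlap (log2 fold change 0.58, SE 0.09, adjusted p = 0.0179), and the call was kept in 10 of 16 alternative fits, 1 of them among the 6 that left out a library. Plau, the urokinase, was far more abundant, at 106 RPKM on average in Psat1 cKO and 94.8 RPKM in Ctrl (0.16, adjusted p = 0.180). The coreceptor gene Nrp1 averaged 16.0 RPKM in Psat1 cKO and 11.3 RPKM in Ctrl (0.46, adjusted p = 0.235). Hgf itself reached no more than 0.141 RPKM in any library.

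Cxcr4 is the receptor of the chemokine CXCL12 and acts in the migration of muscle precursors. Cxcr4 (chromosome 1, 128588199 to 128592299) was at 10.5, 8.54 and 8.12 RPKM in Psat1 cKO, against 8.40, 9.02 and 10.4 RPKM in Ctrl. The ranges were nearly the same, and the means were 9.06 ± 1.28 RPKM in Psat1 cKO and 9.27 ± 1.02 RPKM in Ctrl (SD, n = 3 each). The log2 fold change of -0.03 had an interval of -0.29 to 0.22 (limma, adjusted p = 0.921), and its sign turned with array quality weights (0.04). Ackr3, the decoy receptor that also binds CXCL12, was at 17.8, 18.5 and 19.7 RPKM in Psat1 cKO, against 22.7, 22.8 and 25.5 RPKM in Ctrl. It was lower in all 3 Psat1 cKO libraries than in any Ctrl library (-0.33, SE 0.06, adjusted p = 0.0452), and this call was kept in 6 of 17 alternative fits and in none that left out a library. Ackr3 was the 1 gene called of 8 tested in its list of 22, where 2 had positive log2 fold changes and the median was -0.04. Cxcl12 averaged 14.0 ± 1.44 RPKM in Psat1 cKO and 15.8 ± 2.17 RPKM in Ctrl (SD, n = 3 each; -0.16, adjusted p = 0.556).

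Calcr, the calcitonin receptor, holds satellite cells at rest in mouse muscle (chromosome 6, 3685678 to 3764713). It was at 0.00725, 0.00884 and 0 RPKM in Psat1 cKO, against 0.00759, 0.0195 and 0.0237 RPKM in Ctrl. With a single transcript length fitted to all 6 values, the reads came to 1, 1 and 0 in the Psat1 cKO libraries, against 1, 3 and 4 in the Ctrl libraries, each within 0.00125 of a whole read. The fitted length, 3921 bp, is not that of the longest coding transcript in GENCODE M21, 3763 bp, so the reads are an estimate. A level worth 3 reads was 0.0218, 0.0265 and 0.0393 RPKM in the Psat1 cKO libraries, against 0.0228, 0.0195 and 0.0178 RPKM in the Ctrl libraries, counting error only. All 3 Psat1 cKO values and that of Ctrl 1 lay below this floor, Ctrl 2 lay at it and Ctrl 3 above it. The authors' deposited table lists a fold change of -3.77 for Calcr with p = 0.168 and q = 0.530, a number that rests on these few reads. At this depth no difference was detectable, and no fold from the values here is reported. Of 10 genes of the receptor's family and its ligands 7 passed the filter and 0 were called by limma, with 6 positive log2 fold changes and a median of 0.09. The related receptor gene Calcrl averaged 2.35 RPKM in Psat1 cKO and 1.87 RPKM in Ctrl (0.26, adjusted p = 0.360), its partner Ramp1 2.33 RPKM in Psat1 cKO and 2.14 RPKM in Ctrl (0.09, adjusted p = 0.670), and the ligand gene Adm, adrenomedullin, 5.72 RPKM in Psat1 cKO and 3.60 RPKM in Ctrl (0.58, adjusted p = 0.157).

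CD9 and CD82 are tetraspanins, small proteins that span the membrane repeatedly and gather integrins and other receptors into patches; CD9 also acts in myoblast fusion, and CD82 has been used to isolate human muscle stem cells. Cd9 (chromosome 6, 125460266 to 125494760) was at 61.0, 66.9 and 65.2 RPKM in Psat1 cKO, against 57.8, 58.2 and 56.1 RPKM in Ctrl. All 3 Psat1 cKO libraries were above all 3 Ctrl libraries by a small margin, with means of 64.3 ± 3.04 RPKM in Psat1 cKO and 57.4 ± 1.14 RPKM in Ctrl (SD, n = 3 each). The log2 fold change of 0.16 had a standard error of 0.05 and an interval of 0.05 to 0.28 and did not pass the test (limma, adjusted p = 0.185; 0.142 to 0.385 over 17 alternative fits). The authors' deposited table gave Cd9 a fold change of 1.12 with q = 0.244.

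Cd82 (chromosome 2, 93419102 to 93462950) was at 57.8, 65.8 and 56.0 RPKM in Psat1 cKO, against 53.7, 52.4 and 69.6 RPKM in Ctrl. Ctrl 3 was the highest of all and the 2 other controls the lowest, so the Ctrl range enclosed the Psat1 cKO range (log2 fold change 0.04, interval -0.22 to 0.30, limma adjusted p = 0.914). Cd9 was more abundant than Cd82 in every library except Ctrl 3. Of 29 other tetraspanins 20 passed the filter, 10 had positive log2 fold changes, the median was -0.02 and 0 were called by limma. Cd81, the tetraspanin closest to CD9 in function, averaged 205 RPKM in Psat1 cKO and 213 RPKM in Ctrl and so was 2.85 to 3.50 times as abundant as Cd9 in Psat1 cKO, against 3.58 to 3.86 times in Ctrl (log2 fold change of Cd81 -0.06, adjusted p = 0.754). Tspan4 averaged 44.6 RPKM in Psat1 cKO and 38.6 RPKM in Ctrl (0.21, adjusted p = 0.0840).

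Proteins that tetraspanins bind gave 2 higher and 0 lower of 12 tested, with a median of -0.02. These were Itgb1, given above, and Itga5, the alpha chain of the fibronectin receptor, at 34.7, 48.3 and 32.9 RPKM in Psat1 cKO, against 22.5, 19.4 and 23.4 RPKM in Ctrl. Every Psat1 cKO library exceeded every Ctrl library, with Psat1 cKO 2 the highest (log2 fold change 0.80, SE 0.14, adjusted p = 0.0329). The Itga5 call was kept in 9 of 17 alternative fits and in 2 of the 6 that left out a library. Hbegf, the heparin-binding growth factor that associates with CD9, was at 17.1, 22.2 and 23.1 RPKM in Psat1 cKO, against 13.9, 13.3 and 10.0 RPKM in Ctrl, and did not pass the test (0.72, adjusted p = 0.0516). The laminin receptor chain genes had values on the other side of 0, with Itga6 at -0.31 (adjusted p = 0.121) and Itga7, itself a satellite cell sorting antigen, at 101 RPKM in Psat1 cKO and 111 RPKM in Ctrl (-0.14, adjusted p = 0.532).

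**Figure D4:**
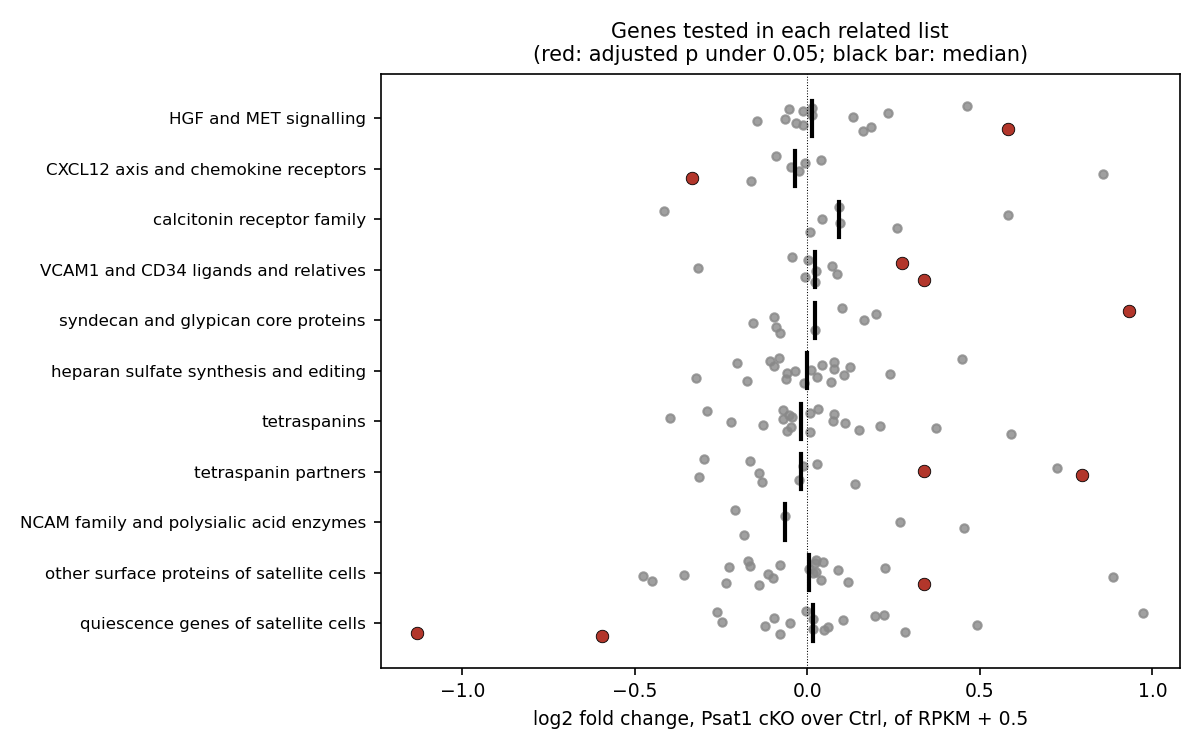
Log2 fold change of RPKM + 0.5, Psat1 cKO over Ctrl, for each tested gene of 11 related lists, 1 row per list; red marks an adjusted p under 0.05 and black bars the list medians. The medians lie between -0.06 and 0.09, and the called genes number 1 or 2 in 7 of the lists and 0 in the other 4.

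Other satellite cell genes outside the 10 were counted against the same background, in which 1.80% of genes were higher and 0.490% lower. Of 26 further surface proteins of satellite cells 23 passed the filter, 1 was higher (Itgb1), 0 were lower, and 12 had positive log2 fold changes with a median of 0.00. Cav1, the caveolin that coats membrane pits, was at 12.8, 17.0 and 20.6 RPKM in Psat1 cKO, against 9.45, 6.76 and 10.3 RPKM in Ctrl (log2 fold change 0.89, adjusted p = 0.0657). Megf10, a receptor of the muscle precursor surface, averaged 27.9 RPKM in Psat1 cKO and 35.7 RPKM in Ctrl (-0.36, adjusted p = 0.125), and Cdh15, M-cadherin, 123 RPKM in Psat1 cKO and 145 RPKM in Ctrl (-0.24, adjusted p = 0.470). Of 21 genes tied to satellite cell rest 19 passed, 0 were higher and 2 were lower, Pax7, given above, and the myogenic factor gene Myf5. Myf5 was at 4.60, 5.28 and 6.01 RPKM in Psat1 cKO, against 9.58, 13.1 and 14.2 RPKM in Ctrl (-1.13, adjusted p = 0.0138; 14 of 17 alternative fits).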

How the data were processed

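Per the labels' protocols, RNA taken up in Trizol was made into poly(A) libraries (NEBNext Ultra II). Partek, TopHat2 2.1.1, Trim Galore 0.6.6 and the build mm10 appear in the submitters' processing notes; annotation and way of counting: not given in the sources used here. Values used were the RPKM of 25220 genes in 6 libraries, as the authors deposited them. Their comparison of the groups, also deposited, is a table with group means on a log2 scale, p-values and q-values, a linear ratio, and a signed fold change, per the file headers; that deposited score is the negative reciprocal of the ratio where Psat1 cKO is lower. The deposited tables of enriched terms were not used here. Samples were grouped by title.

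The 12251 genes that averaged 0.5 RPKM or more were compared on log2(RPKM + 0.5) by limma 3.58.1 (R 4.3.3), with a variance trend, no block and Benjamini-Hochberg adjustment; fold changes on that scale understate changes of low genes. Depth was estimated from the steps between low values in 2413 single-exon genes, using values of up to 20 reads. At the depth chosen, 41.2% to 47.6% of these values came within 1% of a whole number of reads, so no count test was run. The median share over all depths tried was 8.08% to 9.5%. RPKM of 1 read in 1 kb was 0.0232 to 0.0514. Floors cover counting error only. Sequence windows and positions are RefSeq's for GRCm38.p6, the assembly mm10 names. The fit was also run on simulated data with independent normal noise for each gene, which does not copy shifts shared within a library. The 10 genes and all lists were chosen with earlier results of these data known. Genes named were the 10, Psat1, Pax7, and of each list those called and up to 3 others of smallest p, and for Cd34 its 3 nearest genes; other members of a list were named for their known part, after their values were seen. The alternatives were pseudocounts of 0.1, 1 and 0.001, quantile normalization and TMM scaling, a filter at 2 RPKM or none, a replicate block, no variance trend, array weights, each library left out, and the side of the Xist and Y-linked split as a term. Of these the pseudocount of 0.001, and besides them the values on each side of the split and the interaction, were chosen with the data in view. Python 3.11.15, numpy 2.4.6, pandas 2.3.3 and matplotlib 3.10.9 handled tables and figures.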

Additional observations from a re-analysis of the deposited data

How the results depend on the processing

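Cd34 kept its direction in all 17 alternative fits and its call in 15, and no other of the 10 genes was called in any. Without the filter on low values, which tested 20767 genes, 1 gene was higher and 3 lower, and 0 of the 10 surface genes were higher. Whether the replicate numbers pair the libraries was not settled. Correlations of deviations from the group means were 0.2, -0.0338 and 0.174 for libraries of the same number, against -0.213 to 0.067 for other numbers. With the replicate block 121 genes were lower, against 60 in the main fit, and Cd34 had an adjusted p of 0.0417. With each library left out in turn there were 49 to 173 higher genes, 12 to 55 lower genes and 0 to 1 higher surface genes, 0 only without Ctrl 2; fewer samples entered these fits. Near 0, signs turned: the Cxcr4 log2 fold change was 0.0425 with array quality weights and -0.141 to 0.0462 over the fits that left out 1 library, and that of Cd82 -0.0344 to 0.169, of Ezr -0.00535 to 0.121 and of Crkl -0.0888 to 0.00270 over the same fits. Leaving out a control or a Psat1 cKO library also moved the whole count by over 1.5 times, with 54 higher without Ctrl 2, 122 without Ctrl 3, 49 without Psat1 cKO 2 and 106 without Psat1 cKO 3, and with 29 lower without Ctrl 1. The cause of these shifts was not tested. With 3 libraries a group, changes as small as those of Cd9 and Met did not pass the test over all genes, and Calcr, at 4 reads or fewer, could not be tested.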
